A study of Mus musculus with 6 samples.

Results

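The genes described here are 54 components of the Wnt pathway: 13 Wnt ligands, 10 Frizzled receptors, 5 co-receptors or alternative receptors (Lrp5, Lrp6, Ror1, Ror2, Ryk), 8 secreted antagonists, Kremen1 and Porcn, 7 genes for Dishevelled and its regulators, 5 genes for beta-catenin and its destruction complex, and 4 TCF/LEF transcription factors. The list was drawn up by gene name and pathway role, with earlier results of these data known. Every array probe that was not a control and whose gene name in the scanner files equalled a listed symbol was taken. R-spondins and their receptors were not included. All 54 were on the array, with 72 probes, among 35515 gene names in all. Of these, 53 genes with 70 probes gave enough signal to be tested, and Wnt2 did not.

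Total RNA came from the primary somatosensory cortex (S1, the cortical field for touch) of C57BL/6 mice at postnatal day 7. The 3 samples labelled Lhx2 cKO carried floxed Lhx2 alleles (Lhx2 f/f) together with Nex-Cre, and the 3 control samples, named WT in the labels, carried the floxed alleles without Cre. Nex-Cre is a recombinase driven from the Neurod6 locus in young excitatory neurons of the cortex, so glia, vessels and interneurons of the same tissue keep their floxed alleles. Only the samples labelled Lhx2 cKO carried Nex-Cre, so effects of Cre or its locus cannot be told apart from Lhx2 loss. Lhx2 encodes a LIM-homeodomain protein that binds DNA. Each sample was read on 1 single-colour array. The series text speaks of separate cortices and the labels do not name the animals, so p-values measure the spread between these samples only, and 3 arrays a group limit the precision of every value.

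Wnt proteins are lipid-modified secreted ligands that bind Frizzled receptors on the cell surface. When an Lrp5 or Lrp6 co-receptor joins the complex, Dishevelled is recruited, the complex of Axin, Apc and Gsk3b stops marking beta-catenin for breakdown, and beta-catenin enters the nucleus to act with TCF/LEF factors. Other branches run through Ror2, Ryk and planar polarity proteins without beta-catenin, and in developing cortex the pathway is known for its part in early patterning, neuronal differentiation, axon growth and the formation of brain vessels.

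Some facts of the arrays bear on all values below. Lhx2 itself gave more signal on the cKO-labelled arrays (4.55 to 4.89) than on the control arrays (3.55 to 3.63), as log2 signal set against each array's own 75th percentile, a 2.15-fold difference (limma adjusted p = 0.0669). Neurod6 was also higher, by 0.37 (limma adjusted p = 0.525). Whether these probes lie in the deleted or replaced parts was not worked out, so these probes may check nothing, but the Lhx2 signal ran against a loss of transcript and the samples are therefore called the cKO-labelled arrays. Y-linked probes were well above background on 0 of the cKO-labelled arrays and on control replicates 1 and 3, so sex was not balanced. All 6 arrays lay on 1 slide. Row 1 held cKO replicate 2 and control replicate 1, and row 2 held cKO replicate 3 and control replicate 2, which allows a difference of 1 array from 1 within each row. The 75th percentile of the signal lay between 822 and 975 intensity units, and between 86.7% and 91.1% of spots were well above background. The defining markers of excitatory neurons, Slc17a7 and Tbr1 among them, were well above background on every array.

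None of the 53 Wnt genes passed an adjusted p of 0.05 over all 32697 genes (limma, Benjamini-Hochberg), a threshold that 0.00918% of all genes passed. The lowest adjusted p among them was 0.0575, for Dact1, whose signal was 2.02-fold higher in the cKO-labelled arrays. At an unadjusted p under 0.05, 9 of the 53 genes (17.0%) differed, against 7.49% of all genes. Of these, 5 were higher (9.43%, against 3.12% of all genes) and 4 were lower (7.55%, against 4.37% of all genes). The higher ones were Dact1, Wnt10a, Wnt3, Ror2 and Fzd1. The lower ones were Frzb, Dact2, Tcf7l1 and Kremen1. Because the list was chosen with earlier results of these data known, these shares describe it and test nothing. The values of the 3 cKO-labelled arrays did not overlap those of the 3 control arrays for 7 of the 53 genes, a share of 13.2%, against 13.2% of all genes. Of these, 2 were higher (Dact1 and Wnt10a, against 6.98% of all genes higher) and 5 were lower (Frzb, Dact2, Tcf7l1, Kremen1 and Apc, against 6.19% of all genes lower). By sign alone, 27 were higher and 26 lower, against 18222 higher and 14475 lower of all 32697 genes. The median log2 difference of the Wnt genes was 0.01, against 0.02 over all genes. The median size of the difference, whatever its sign, was 0.14 for the Wnt genes and 0.10 for all genes.

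**Figure D1:**
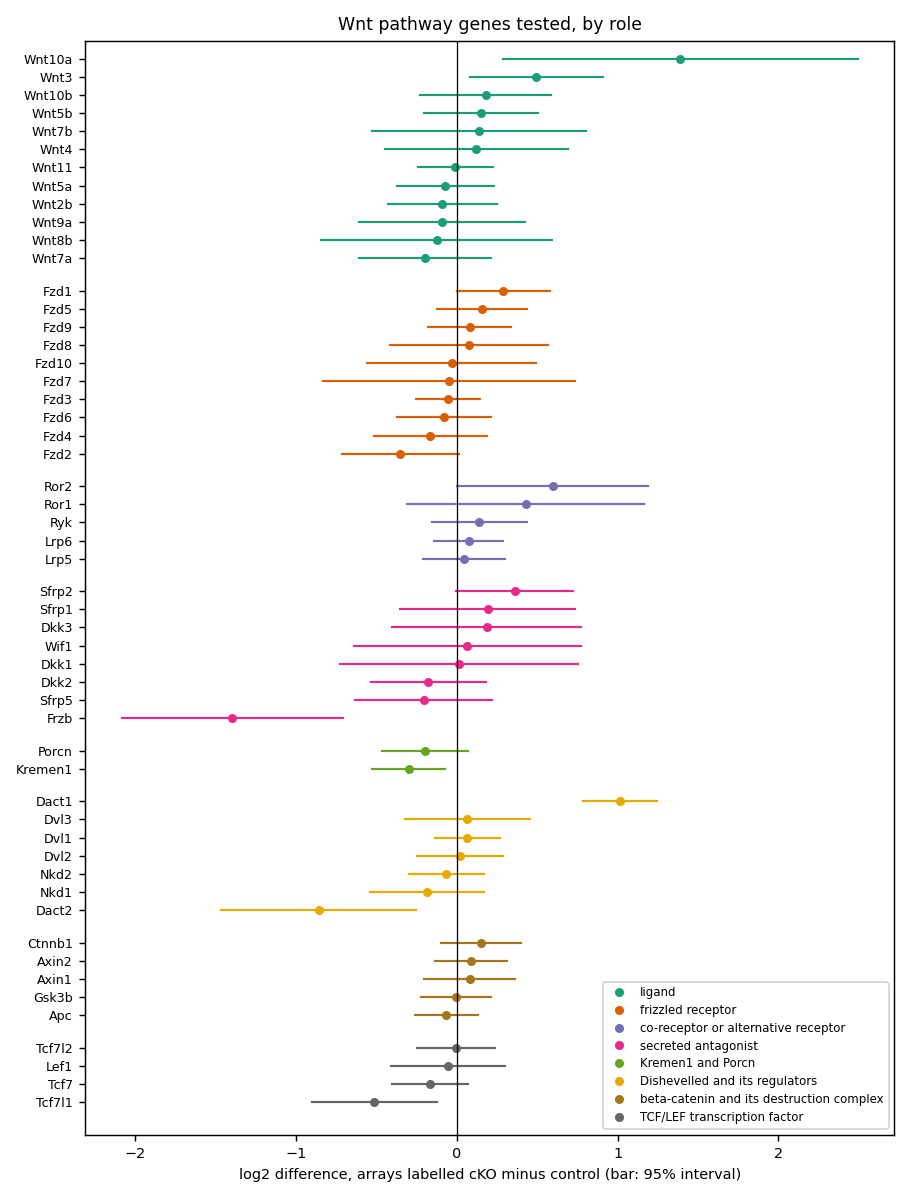
Log2 difference in signal (cKO-labelled arrays minus control) of the 53 Wnt pathway genes tested, grouped by role and coloured by it; points are the differences and bars their 95% intervals from limma. Most intervals include 0, while Dact1 lies at 1.01 and Frzb at -1.40, with no overlap between the arrays of the groups for either.

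The regulators of Dishevelled held both the gene with the smallest p and a gene of the same family that differed the other way. Dact1 encodes a Dishevelled-binding protein that dampens or redirects Wnt signals inside the cell. Its brighter probe (chromosome 12, 72420453 to 72420512 on mm9, plus strand) read 0.96, 1.02 and 1.18 in the cKO-labelled arrays, against 0.06, 0.07 and -0.01 in the control arrays (log2 signal relative to the 75th percentile). All 3 cKO-labelled arrays were above every control array, and the gap between the groups was many times the spread within them. The means were 1.05 ± 0.11 in the cKO-labelled arrays and 0.04 ± 0.05 in control (SD, n = 3 each), a log2 difference of 1.01 (SE 0.10, 95% interval 0.79 to 1.24, limma adjusted p = 0.0575). A second Dact1 probe, 0.663 kb before the first, read 0.37, 0.48 and 0.45 in the cKO-labelled arrays, against -0.41, -0.52 and -0.43 in control. Its log2 difference was 0.89 (SE 0.09, limma adjusted p = 0.0803 over all probes). So both probes separated the groups in the same direction. Within slide row 1 the Dact1 difference was 0.96, and it was larger within row 2. The gene passed the threshold in 7 of 22 other ways of processing, and its adjusted p over the 22 ranged between 0.00422 and 0.655.

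Dact2, a paralogue of Dact1 that also binds Dishevelled, went the other way (probe on chromosome 17, 14332893 to 14332952 on mm9, minus strand). It read -1.63, -1.41 and -2.40 in the cKO-labelled arrays, against -0.81, -0.89 and -1.16 in control. The groups did not overlap, with cKO replicate 3 the lowest array. The log2 difference was -0.86 (SE 0.26, 95% interval -1.47 to -0.25, limma adjusted p = 0.426). It was -0.60 within slide row 1 and -1.51 within row 2. Without cKO replicate 3 the Dact2 difference was -0.57, smaller by over 1.5 times. The other 5 genes of this group lay between -0.18 and 0.07: the Dishevelled genes Dvl1 at 0.06, Dvl2 at 0.02 and Dvl3 at 0.07, and the Naked cuticle genes Nkd1 at -0.18 and Nkd2 at -0.06. A second probe of Nkd2 differed by 0.26, in the opposite direction to the brighter probe.

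The promoter of Dact1 and that of Frzb, described next, are shown because these genes had the smallest p in each direction. Each sequence is the 250 bases before the start of the RefSeq transcript on GRCm38.p6, 5′ to 3′ on the strand of the gene. Capitals mark CTTTGA or its reverse complement TCAAAG, the core letters that TCF/LEF factors bind. The letters TAATTA, which are the same on both strands and form the core that many homeodomain proteins bind, were searched too and occur in neither. The positions are chr12:71309634-71309883 (plus strand) for Dact1 and chr2:80447397-80447646 (minus strand) for Frzb.
Dact1: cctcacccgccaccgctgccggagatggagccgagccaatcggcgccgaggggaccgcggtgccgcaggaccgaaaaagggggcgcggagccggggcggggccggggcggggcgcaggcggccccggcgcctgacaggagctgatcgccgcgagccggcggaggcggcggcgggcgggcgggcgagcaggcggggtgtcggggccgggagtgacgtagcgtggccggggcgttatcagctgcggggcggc
Frzb: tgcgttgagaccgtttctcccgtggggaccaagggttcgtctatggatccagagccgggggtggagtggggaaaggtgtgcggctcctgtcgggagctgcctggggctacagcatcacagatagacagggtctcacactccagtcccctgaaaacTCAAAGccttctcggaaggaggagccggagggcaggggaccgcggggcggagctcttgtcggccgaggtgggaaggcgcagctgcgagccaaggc
The Dact1 sequence is 80.4% G and C and holds neither motif. The Frzb sequence is 64.4% G and C and holds TCAAAG once. RefSeq's table gave promoters for 39 of the 54 genes, 48 sequences in all. CTTTGA or TCAAAG occurred in 8 of these 48 (16.7%), against 13.8% of 32851 promoters of the same length from all genes. TAATTA occurred in 1 of the 48 (2.08%), in Wnt8b, against 4.84% of all promoters. A match in these letters is a description of the sequence and shows no binding.

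Among the secreted antagonists, Frzb stood apart. It encodes secreted Frizzled-related protein 3, a soluble protein with a Frizzled-like domain that binds Wnt ligands outside the cell. Its probe (chromosome 2, 80252582 to 80252641 on mm9, minus strand) read -2.96, -3.89 and -4.15 in the cKO-labelled arrays, against -2.29, -2.27 and -2.24 in the control arrays. The control arrays were nearly equal, while cKO replicate 1 lay closer to them than the other cKO arrays did. The means were -3.66 ± 0.63 in the cKO-labelled arrays and -2.27 ± 0.03 in control (SD, n = 3 each), a 2.63-fold lower signal (log2 difference -1.40, SE 0.29, 95% interval -2.08 to -0.71, limma adjusted p = 0.254). Within slide rows 1 and 2 the Frzb difference was -1.59 and -1.88. With normexp background correction, run with an offset of 50 that shrinks differences of dim probes, it was -0.89 (limma adjusted p = 0.101).

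The other 7 secreted antagonists lay between -0.21 and 0.36. Sfrp2, another secreted Frizzled-related gene, read 0.26, 0.15 and -0.26 in the cKO-labelled arrays, against -0.35, -0.18 and -0.39 in control. The groups overlapped through cKO replicate 3 (log2 difference 0.36, 95% interval -0.01 to 0.72, limma adjusted p = 0.671). It was 0.23 with a term for Y-linked signal or on the 4 arrays that lack it, and 0.13 with array weights. Sfrp1 and Sfrp5, from the same family, differed by 0.19 and -0.21. Of the Dickkopf genes, Dkk1, whose protein blocks Lrp5 and Lrp6, differed by 0.01 with a wide interval (-0.73 to 0.75) and was well above background on 2 cKO-labelled arrays and 3 control arrays. Dkk2 differed by -0.18, and Dkk3, a divergent member of that family, by 0.18. In Dkk3 the cKO-labelled arrays read 3.33, 4.21 and 4.26, against 3.86, 3.74 and 3.64 in control, so that replicate 1 lay below and replicates 2 and 3 above every control array. Wif1, which binds Wnt proteins directly, read -1.93, -2.46 and -1.19 in the cKO-labelled arrays, against -1.87, -1.85 and -2.05 in control. The Wif1 groups overlapped, with a difference of 0.07 (95% interval -0.64 to 0.77).

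Kremen1 and Porcn, which act on reception and on secretion of the signal, were both lower by sign, as were 14475 of all 32697 genes. Kremen1 is a receptor for Dickkopf proteins that removes Lrp6 from the surface. It read -0.40, -0.52 and -0.50 in the cKO-labelled arrays, against -0.11, -0.29 and -0.12 in control (chromosome 11, 5091749 to 5091808 on mm9, minus strand). The groups did not overlap, but the difference was small, -0.30 on the log2 scale (SE 0.10, limma adjusted p = 0.479). A second, dimmer Kremen1 probe differed by -0.05 (SE 0.22), so the difference rests on the brighter probe. Averaged over both probes it was -0.17, and on the 4 arrays that lack Y-linked signal, or with a term for it, -0.19. Porcn, the enzyme that attaches the lipid to Wnt proteins in the endoplasmic reticulum, read 2.05, 2.32 and 2.09 in the cKO-labelled arrays, against 2.46, 2.35 and 2.25 in control. Its groups overlapped (difference -0.20, 95% interval -0.47 to 0.07, limma adjusted p = 0.825).

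**Figure D2:**
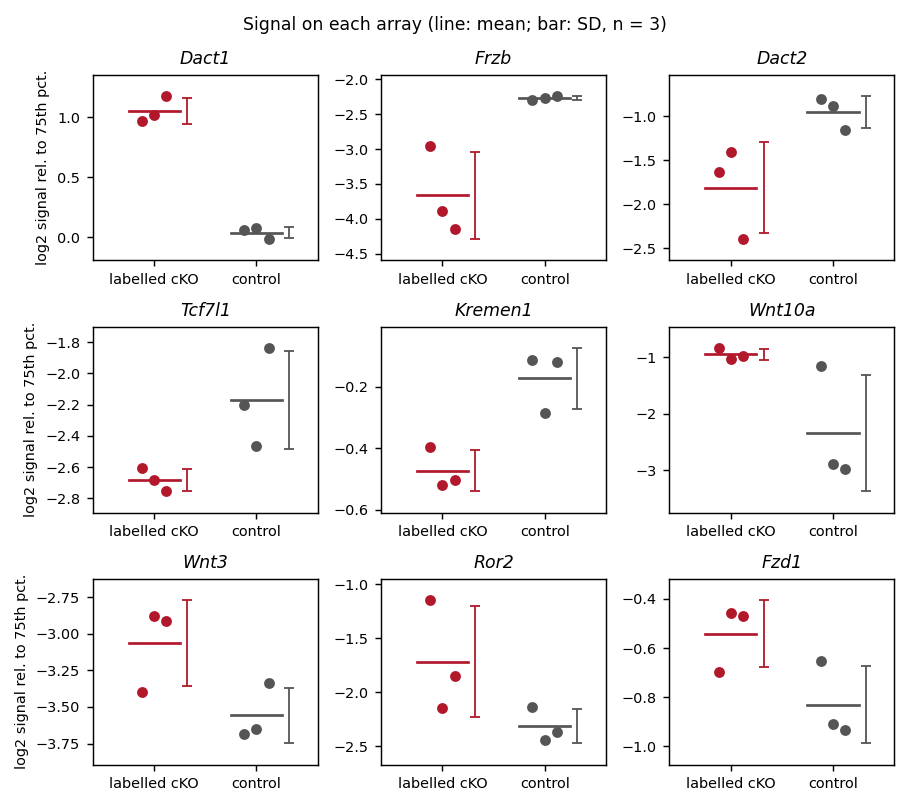
Log2 signal set against its array's own 75th percentile on each array for the 9 Wnt pathway genes with an unadjusted p under 0.05; points are arrays, lines means and bars SD, with n = 3 a group and a separate scale in each panel. The groups do not overlap for Dact1, Frzb, Dact2, Tcf7l1, Kremen1 and Wnt10a, and overlap for Wnt3, Ror2 and Fzd1.

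Of the 12 ligand genes tested, 2 were higher at an unadjusted p under 0.05 and none was lower, against 3.12% of all genes higher and 4.37% lower. Wnt10a, a ligand known for its part in teeth and hair, had one of the widest gaps between means and also the widest spread (probe on chromosome 1, 74850633 to 74850692 on mm9, plus strand). It read -0.84, -1.03 and -0.97 in the cKO-labelled arrays, against -1.15, -2.88 and -2.98 in control. Control replicate 1 lay next to the cKO-labelled arrays and far from the other 2 controls. The means were -0.95 ± 0.10 in the cKO-labelled arrays and -2.34 ± 1.03 in control (SD, n = 3 each), with a log2 difference of 1.39 (SE 0.46, 95% interval 0.29 to 2.49, limma adjusted p = 0.508). Within slide row 1, which holds that control array, the Wnt10a difference was 0.12, and within row 2 it was 1.91. Without control replicate 1, which carried Y-linked signal, it was 1.98 (limma adjusted p = 0.0463), the only 1 of 22 alternatives in which Wnt10a passed. On the 4 arrays that lack that signal, with control replicate 2 the only control left, the Wnt10a difference was 1.94.

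Wnt3, a ligand of the beta-catenin branch, read -3.40, -2.88 and -2.92 in the cKO-labelled arrays, against -3.68, -3.65 and -3.34 in control (chromosome 11, 103679038 to 103679097 on mm9, plus strand). cKO replicate 1 fell just below control replicate 3, so the groups overlapped. The log2 difference was 0.49 (SE 0.17, 95% interval 0.08 to 0.91, limma adjusted p = 0.547), with 0.81 and 0.74 within slide rows 1 and 2. With normexp background correction and median centring the Wnt3 difference was 0.32.

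The other 10 ligands lay between -0.20 and 0.18. Wnt7a and Wnt7b, which neural cells send to vessel endothelium, differed by -0.20 and 0.14. In Wnt7b, cKO replicate 1 stood alone: the cKO-labelled arrays read -0.96, -1.98 and -1.89, against -1.97, -1.75 and -1.53 in control. The Wnt7b interval was -0.53 to 0.80. Wnt4 showed the same array highest, with 1.51, 0.90 and 0.66 in the cKO-labelled arrays, against 1.07, 1.05 and 0.59 in control, and a difference of 0.12. Wnt5a and Wnt11, ligands mostly tied to the branches without beta-catenin, differed by -0.07 and -0.01, and Wnt5b by 0.15. Wnt8b and Wnt2b, which mark the medial edge of the embryonic cortex, differed by -0.13 and -0.09. Wnt9a differed by -0.09 and Wnt10b by 0.18. Wnt2 was not well above background on any of the 6 arrays, with readings of -6.31, -7.13 and -7.39 in the cKO-labelled arrays and -7.73, -6.47 and -5.75 in control, so no fold is given.

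Receptors differed little. Of the 10 Frizzled genes, Fzd1 was higher at an unadjusted p under 0.05. It read -0.70, -0.46 and -0.47 in the cKO-labelled arrays, against -0.65, -0.91 and -0.93 in control (chromosome 5, 4754003 to 4754062 on mm9, minus strand). The groups overlapped, since cKO replicate 1 lay below control replicate 1, and the log2 difference was 0.29 (SE 0.12, limma adjusted p = 0.666). Fzd2 had the lowest difference of the family, with -0.26, -0.46 and -0.12 in the cKO-labelled arrays, against 0.14, -0.20 and 0.27 in control. Its groups overlapped at control replicate 2 (difference -0.35, 95% interval -0.72 to 0.01, limma adjusted p = 0.682), and its second probe gave -0.29. The Fzd2 difference was -0.08 with a term for Y-linked signal or on the 4 arrays that lack it, -0.12 with array weights, and 0.07 within slide row 2. Fzd4, the receptor of Norrin in vessels, differed by -0.16, and the other 7 Frizzled genes lay between -0.08 and 0.16. Fzd7 was the most variable of them, with -2.45, -3.59 and -2.49 in the cKO-labelled arrays and -2.59, -3.18 and -2.62 in control. The 95% interval was -0.83 to 0.74 for Fzd7, -0.42 to 0.57 for Fzd8 and -0.56 to 0.49 for Fzd10. A second, dimmer Fzd7 probe differed by -0.25 (SE 0.16).

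The 5 co-receptors and alternative receptors were all higher by sign, as were 18222 of all 32697 genes. Ror2, a receptor tyrosine kinase that binds Wnt5a, read -1.15, -2.14 and -1.85 in the cKO-labelled arrays, against -2.13, -2.44 and -2.36 in control (chromosome 13, 53204795 to 53204854 on mm9, minus strand). Replicate 1 was the highest of the cKO-labelled arrays, and replicate 2 lay at the level of the highest control. The log2 difference was 0.60 (SE 0.25, limma adjusted p = 0.665). It was -0.01 within slide row 1 and 0.58 within row 2, and 0.31 without cKO replicate 1. Ror1 was dim, well above background on 2 cKO-labelled arrays and 1 control array, and differed by 0.43 with an interval of -0.31 to 1.17. Ryk, an atypical Wnt receptor used in axon guidance, differed by 0.14, Lrp6 by 0.07 and Lrp5 by 0.04.

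The core of the beta-catenin branch had narrow intervals around 0. Ctnnb1, which encodes beta-catenin, read 4.06, 3.88 and 3.77 in the cKO-labelled arrays, against 3.75, 3.72 and 3.80 in control, and the groups overlapped (difference 0.15, 95% interval -0.10 to 0.40, limma adjusted p = 0.905). Without cKO replicate 1 the Ctnnb1 difference was 0.07. The kinase gene Gsk3b differed by -0.01 (95% interval -0.22 to 0.21) and the scaffold gene Axin1 by 0.08. Axin2, a scaffold that is also a widely used target gene of beta-catenin, averaged -2.06 ± 0.06 in the cKO-labelled arrays and -2.15 ± 0.10 in control (SD, n = 3 each). Its groups overlapped, the difference was 0.09 (95% interval -0.14 to 0.31), and its second probe gave 0.07. Apc, the scaffold that holds beta-catenin for marking, read 0.33, 0.38 and 0.28 in the cKO-labelled arrays, against 0.42, 0.39 and 0.39 in control. The Apc groups did not overlap, by a very small margin, and the difference was -0.07 (SE 0.08). At a second, dimmer Apc probe the groups overlapped, with a difference of -0.04 (SE 0.10).

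Among the TCF/LEF factors, Tcf7l1 was lower at an unadjusted p under 0.05. Tcf7l1 acts mainly as a repressor of Wnt target genes. It read -2.61, -2.69 and -2.75 in the cKO-labelled arrays, against -2.20, -2.46 and -1.84 in control (chromosome 6, 72576377 to 72576436 on mm9, minus strand). The groups did not overlap, and the control arrays spread more widely. The log2 difference was -0.51 (SE 0.16, 95% interval -0.90 to -0.13, limma adjusted p = 0.479), with -0.48 and -0.29 within slide rows 1 and 2. On the 4 arrays that lack Y-linked signal the Tcf7l1 difference was -0.22, and it was also -0.22 with a term for that signal. Tcf7 differed by -0.17, with -2.92, -2.88 and -2.77 in the cKO-labelled arrays and -2.58, -2.81 and -2.67 in control. The Tcf7 difference was -0.05 with a term for Y-linked signal or on the 4 arrays that lack it, -0.06 with array weights and -0.10 with normexp background correction. A second Tcf7 probe was well above background on none of the cKO-labelled arrays and on 2 control arrays. It read -5.78, -5.64 and -5.78 in the cKO-labelled arrays, against -5.63, -5.42 and -5.98 in control, and the groups overlapped. This probe was not tested, and no fold is given. Lef1 differed by -0.06, and a second Lef1 probe by 0.10.

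Tcf7l2 is the TCF factor known for its high level in thalamic neurons and in maturing oligodendrocytes. It was read by 3 probes with unlike log2 differences, a pattern chosen after its values were seen. The brightest (chromosome 19, 55817272 to 55817331 on mm9, plus strand) read -0.68, -0.61 and -0.87 in the cKO-labelled arrays, against -0.68, -0.78 and -0.69 in control, a difference of -0.01 (SE 0.10). A probe 177 kb farther along the gene (55994029 to 55994088) read -3.39, -3.11 and -3.29 in the cKO-labelled arrays, against -2.68, -2.85 and -2.87 in control. The third probe, another 12.6 kb along (56006638 to 56006697), read -5.78, -5.58 and -5.38 in the cKO-labelled arrays, against -4.55, -4.95 and -4.75 in control. The arrays of the groups overlapped at the first probe and did not overlap at the more distal probes. The log2 differences there were -0.47 (SE 0.11, limma adjusted p = 0.414 over all probes) and -0.83 (SE 0.15, limma adjusted p = 0.247). The third probe was well above background on 1 cKO-labelled array and on 3 control arrays, and with normexp background correction it gave -0.22, against -0.28 for the second. Whether the probes differ from each other was not tested.

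The array annotation names a different RefSeq transcript for each of the 3 Tcf7l2 probes. Which further transcripts each probe detects was not worked out. Probe positions on mm9 were not carried over to GRCm38.p6, so the starts below are not placed against the probes. RefSeq's table for GRCm38.p6 lists starts of Tcf7l2 transcripts that lie 154 kb apart on the plus strand of chromosome 19. The 250 bases before each are shown because the log2 differences of the probes were unlike along the gene. A link between the starts and those differences was not tested. Neither sequence holds any of the motifs searched above, so they carry no capitals. The first is chr19:55741560-55741809 and the second chr19:55895071-55895320.
Tcf7l2, first start: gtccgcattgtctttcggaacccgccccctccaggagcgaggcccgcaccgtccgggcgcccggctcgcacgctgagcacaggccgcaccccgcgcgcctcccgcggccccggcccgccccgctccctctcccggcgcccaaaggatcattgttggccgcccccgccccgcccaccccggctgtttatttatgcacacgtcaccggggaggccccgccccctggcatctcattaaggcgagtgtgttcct
Tcf7l2, second start: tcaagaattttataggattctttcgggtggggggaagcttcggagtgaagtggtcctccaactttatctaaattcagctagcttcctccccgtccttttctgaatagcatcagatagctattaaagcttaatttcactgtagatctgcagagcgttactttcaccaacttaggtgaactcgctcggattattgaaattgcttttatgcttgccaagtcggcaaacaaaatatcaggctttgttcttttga
The first sequence is 72.8% G and C and the second 40.8%.

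**Figure D3:**
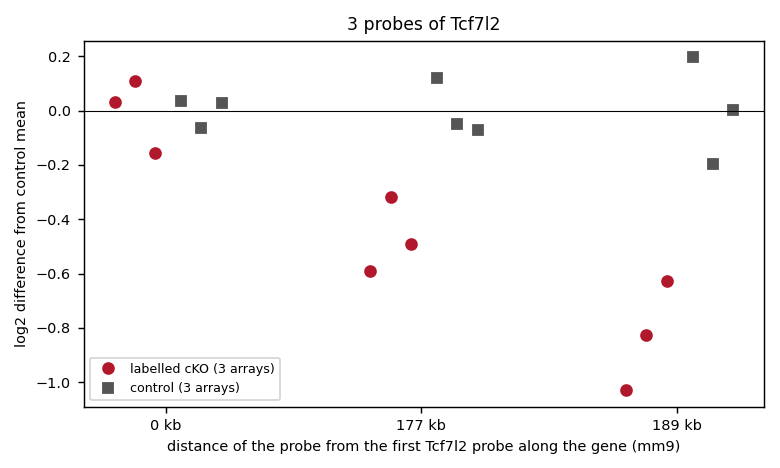
Log2 difference of each array from the control mean at the 3 Tcf7l2 probes, placed in order by their distance along the gene on mm9 (spacing not to scale); red circles are the 3 cKO-labelled arrays and grey squares the 3 control arrays. At the first probe the cKO-labelled arrays lie between -0.16 and 0.11, and at the last between -1.03 and -0.63.

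Several probes were tested for 15 of the Wnt genes. Their log2 differences had opposite signs in 3 of them (Gsk3b, Lef1 and Nkd2), and lay over 0.5 apart in 1, Tcf7l2. Of the 44 genes with an unadjusted p of 0.05 or more, all differences lay between -0.35 and 0.43. The 95% interval excluded a log2 difference of 1 in either direction for 43 of these 44, and a difference of 0.5 in either direction for 23. For the remaining genes a difference of that size was not excluded.

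Genes of the pathway outside this set were read from 5 further lists with 69 genes, of which 66 were tested. None of them passed over all genes, and the lowest adjusted p was 0.200. At an unadjusted p under 0.05, 6 were higher and 3 lower (13.6% together, against 7.49% of all genes), and the median log2 difference was 0.09. Sulf2, an extracellular sulfatase that edits heparan sulfate and so Wnt binding, read 3.32, 3.55 and 3.57 in the cKO-labelled arrays, against 2.93, 2.95 and 2.81 in control. The groups did not overlap (difference 0.59, SE 0.11, limma adjusted p = 0.2). In the same list of 16 extracellular regulators, Dkk4, a further Dickkopf gene, differed by -0.43 and Sostdc1, a secreted Wnt and BMP antagonist, by 0.30. Of 15 planar polarity genes, 1 was higher and 2 were lower at an unadjusted p under 0.05, against 3.12% of all genes higher and 4.37% lower. By sign, 9 of the 15 were higher and 6 lower, against 18222 higher and 14475 lower of all 32697 genes. The 3 genes were Daam1 at 0.38, its paralogue Daam2, also a Dishevelled-binding formin, at -0.69, and Prickle2 at -0.36. Daam2 read 0.39, 0.72 and -0.07 in the cKO-labelled arrays, against 1.04, 1.14 and 0.94 in control, with no overlap (limma adjusted p = 0.404).

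Of 22 other intracellular and nuclear components, 3 were higher and none lower at an unadjusted p under 0.05, against 3.12% of all genes higher and 4.37% lower, shares that also stand against the counts of the next lists. The groups did not overlap for 8 of the 22 (36.4%, against 13.2% of all genes). The 3 higher ones were Apc2, the Apc paralogue of neurons, at 0.26, the Apc-binding gene Amer2 at 0.27 and the corepressor gene Ctbp2 at 0.22. Of 7 target genes of beta-catenin tested, 1 was higher: Myc read 0.34, 0.74 and 0.86 in the cKO-labelled arrays, against 0.29, 0.26 and 0.32 in control (difference 0.36, limma adjusted p = 0.635). Ccnd1, which encodes cyclin D1, differed by -0.07, and the target genes Sp5 and Bambi by 0.34 and 0.39 without reaching an unadjusted p under 0.05. Of 6 further ligands tested, none had an unadjusted p under 0.05. Among them, Ndp, which encodes the Fzd4 ligand Norrin, differed by -0.28, Wnt8a by 0.19 and Wnt16 by 0.20.

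Marker genes of other cells in the dissected tissue moved with the groups. In these bulk samples, fewer cells of a type and less RNA per cell cannot be told apart. At an unadjusted p under 0.05, 13 of 15 astrocyte markers, 11 of 14 microglial and 6 of 15 oligodendrocyte lineage markers were lower, and none was higher, against 4.37% of all genes lower. The median log2 difference was -0.46 for the astrocyte, -0.58 for the microglial and -0.28 for the oligodendrocyte lineage list. By sign, all 15 astrocyte and all 14 microglial markers were lower, against 14475 of all 32697 genes. The oligodendrocyte lineage list had 13 lower and 2 higher. In that list the groups did not overlap for 7 lower markers and 1 higher marker, against 6.19% and 6.98% of all genes. The summed astrocyte signal lay between 138 and 166 in the cKO-labelled arrays and between 191 and 229 in control, in units of the 75th percentile. The oligodendrocyte lineage sum lay between 139 and 163 in the cKO-labelled arrays and between 169 and 209 in control, and the microglial sum between 68.9 and 74.9 in the cKO-labelled arrays and between 88.1 and 90.7 in control. The markers with the smallest p were Gfap (-1.15), Aqp4 (-0.46) and Ndrg2 (-0.42) for astrocytes, Cx3cr1 (-0.82), C1qb (-0.58) and Tyrobp (-0.79) for microglia, and Cnp (-0.98), Enpp6 (-1.52) and Bcas1 (-0.99) for the oligodendrocyte lineage. None of these markers passed over all genes.

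Counts in the other lists stand against the same shares of all genes, 4.37% lower and 3.12% higher at an unadjusted p under 0.05. Of 13 endothelial and mural markers, 2 were lower at an unadjusted p under 0.05 (Pdgfrb at -0.35 and Acta2 at -0.41), with sums of 28.0 to 30.3 in the cKO-labelled arrays and 26.1 to 33.7 in control. Of 12 meningeal and fibroblast markers none had an unadjusted p under 0.05, but their sum ranged between 14.2 and 41.8 in the cKO-labelled arrays and between 26.7 and 41.1 in control. Of 8 thalamic markers 2 were lower (Rora at -0.53 and Slc17a6, which is on the excitatory neuron list too, at -0.35), with sums of 5.87 to 7.03 in the cKO-labelled arrays and 7.41 to 8.14 in control. Of the 8 hippocampal markers 2 were lower (Zbtb20 at -0.64, Lct at -0.99), with sums of 3.66 to 5.26 in the cKO-labelled arrays and 6.61 to 7.25 in control. Of the 9 striatal markers 3 were lower, Drd1 at -0.44 and Tac1 at -0.92 among them. Their sums were 9.47, 6.86 and 6.49 in the cKO-labelled arrays, against 9.53, 9.73 and 17.6 in control, so control replicate 3 stood alone. Of the 8 choroid plexus markers none had an unadjusted p under 0.05, and their sum was 1.51 to 2.01 in the cKO-labelled arrays and 1.58 to 2.55 in control. Of 14 interneuron markers 2 were lower, Gad2 at -0.38 and Npy at -0.45, with sums of 116 to 141 in the cKO-labelled arrays and 132 to 162 in control. Excitatory neuron markers went both ways, with 4 of 12 higher (Neurod1 at 1.16 and Fezf2 at 0.45 among them) and 2 lower, Emx1 at -0.91 being one, and sums of 86.7 to 91.5 in the cKO-labelled arrays and 75.1 to 86.4 in control. Of all 32697 genes, 14475 were lower by sign. All 12 meningeal and all 8 thalamic markers were lower, with medians of -0.37 and -0.29, against 0.02 over all genes. So were 7 of 8 choroid plexus (-0.24), 8 of 9 striatal (-0.36) and 12 of 14 interneuron markers (-0.18). Lower too were 10 of 13 endothelial and mural (-0.14) and 5 of 8 hippocampal markers (-0.09). Of the excitatory neuron markers 7 were higher and 5 lower (0.11). The part of these shifts in the values of Frzb, Dact2, Tcf7l1, Kremen1, Daam2 or the Tcf7l2 probes was not tested.

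**Figure D4:**
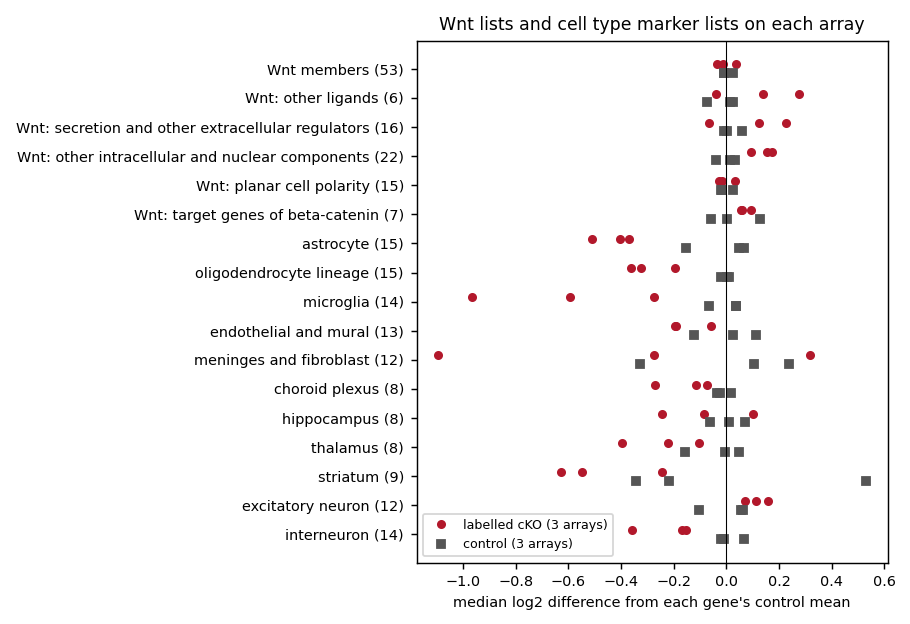
Median over each list of the genes' log2 differences from their control means, for each array (red circles, the 3 cKO-labelled arrays; grey squares, the 3 control arrays); the number of genes tested is in brackets. The 53 Wnt genes, in the top row, lie between -0.03 and 0.04 on every array, while the astrocyte list lies between -0.51 and -0.37 on the cKO-labelled arrays.

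The lead differences were compared across other ways of processing. For 9 genes the direction held in all 22 alternatives tried. These 9 were picked by their p on the same arrays, so a held direction is no separate evidence. Dact1 stayed between 0.95 and 1.06 and passed the threshold in 7 of them, Frzb lay between -1.75 and -0.89 and passed in 1 (array weights), and Wnt10a lay between 1.07 and 1.98 and passed in 1 (without control replicate 1). The other 6 passed in none of the 22.

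**Figure D5:**
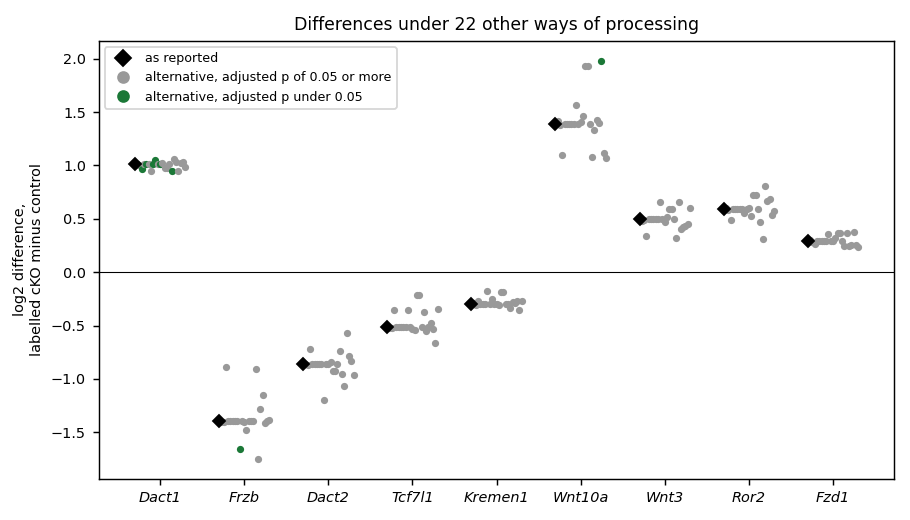
Log2 difference (cKO-labelled arrays minus control) of the 9 Wnt pathway genes with an unadjusted p under 0.05, as reported (black diamonds) and under 22 other ways of processing (circles, green where the adjusted p was under 0.05). No difference changes sign, and green circles occur for Dact1, Frzb and Wnt10a.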

How the data were processed

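Single-colour arrays of 3 samples a group were read from the scanner files. The deposited intensities are, per the file headers, processed Feature Extraction 10.5.1.1 signals after spatial detrending and background subtraction, not scaled between arrays; the mean and local background intensities were also deposited. The authors' deposited matrix holds log2 values that match quantile-normalized signals centred per probe, 95% of values within 0.00859, and no source used here states how it was made.

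Control and outlier-flagged spots were left out, log2 signals of a probe's spots averaged, and each array set to its 75th percentile over 55681 probes. Probes well above background on at least 3 arrays were kept (50030 probes), and each gene took its brightest probe. Names were updated through RefSeq (GRCm38.p6): 28331 probes by accession, 428 by another accession, 2034 by symbol, 162 by synonym, 24726 unchanged. Coordinates of probes are those of the files (mm9); exon and UTR annotation was not used. Groups were compared with limma 3.58.1 (R 4.3.3; lmFit, eBayes, two-sided) over all 32697 genes, with Benjamini-Hochberg adjustment; Dact1's second probe and the Tcf7l2 probes were fitted over all probes. The fit was tested on simulated data. No value was missing among the genes reported.

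The genes and lists were chosen with earlier results of these data known. Values of every array are given for the 14 Wnt genes with the smallest p, and for others picked after their values were seen; up to 3 genes per further list are named by smallest p, and others there were picked after their values were seen. Marker lists cover astrocytes, oligodendrocyte lineage, microglia, endothelial and mural cells, meninges, choroid plexus, hippocampus, thalamus, striatum, excitatory neurons and interneurons.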

Additional observations from a re-analysis of the deposited data

How the results depend on the processing

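No Wnt gene passed over all genes as reported, and this count moved with the processing. It was 1 (Dact1) with quantile normalization, normexp background correction, normexp with median centring, a filter on all 6 arrays, an intensity trend with robust variances, and the authors' matrix, and 2 (Dact1 and Frzb) with array weights. Leaving out single arrays gave 0 to 1, the 1 being Wnt10a without control replicate 1. Of the other Wnt pathway genes, 1 passed with the intensity trend and 1 with array weights, Sulf2 in both. The 5 genes higher at an unadjusted p under 0.05 became 3 with no filter on dim probes, 9 with array weights, 2 with a term for Y-linked signal, 3 on the arrays that lack that signal, and 1 to 5 with single arrays left out (1 without control replicate 2, and 3 without cKO replicate 2, cKO replicate 3 or control replicate 3). The share of all genes higher moved too, with 4%, 8.30%, 1.28% and 1.40% under those 4 settings, against 3.12% as reported. Without control replicate 2 that share was 2.07%, and without control replicate 3 it was 4.29%. Without cKO replicate 2 it was 3.61%, and without cKO replicate 3 it was 2.63%. The 4 lower ones became 1 with the Y-linked term (2.07% of all genes lower, against 4.37% as reported). They became 1 on the arrays that lack the signal (2.70%). Array weights gave 6 lower ones (8.77% of all genes lower). Quantile normalization, median centring and normexp with or without median centring each gave 5. The mean of all probes, the intensity trend and the authors' matrix also gave 5. Across those settings with 5, between 4% and 5.20% of all genes were lower. With single arrays left out the 4 lower ones became 3 to 5, with 3.51% to 4.91% of all genes lower. Over all genes the count of 3 became 12 with quantile normalization or the matrix, 24 with median centring, 89 with normexp, 38 with normexp and median centring, 0 with no filter, 13 with a filter on all 6 arrays, 110 with the trend, 453 with array weights, 2 with the percentile taken over spots, 2 on the arrays that lack Y-linked signal, 0 with the slide row or Y-linked term, and 0 to 4 with single arrays left out; the cause was not tested. None of the 14 Wnt genes and 2 Tcf7l2 probes that were refitted had passed as reported, so none could be lost. Of their 342 refitted differences, 333 again did not pass, 9 newly passed and 0 changed sign, though some shrank several-fold. The percentile over spots and normexp with median centring were chosen after seeing the data, as were the separate fits of the Tcf7l2 probes. Same-numbered samples share only a number: their deviations correlated at -0.20, 0.083 and 0.17, and only replicate 3 correlated best with its own number. With the replicate block, 0 of all genes and 0 Wnt genes passed. At an unadjusted p under 0.05, 5 Wnt genes were higher and 5 lower, against 2.61% and 4.23% of all genes. Dim probes such as Frzb, Wnt3 and the last Tcf7l2 probe gave smaller differences under normexp. Normexp was run with an offset of 50 added to every intensity, which by itself shrinks log2 differences of dim probes.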
